A study of Homo sapiens with 6 samples.

Results

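The ID, E-protein, HES and HEY genes described here are *ID1*, *ID2*, *ID3*, *TCF3*, *TCF4*, *TCF12*, *HES1* and *HEY1*, 8 genes of the basic helix-loop-helix (bHLH) family. The genes were chosen with earlier results of these data known. Every probeset that the platform annotation assigns to 1 of them was then taken, whatever its values. This gave 22 of the 16569 probesets on the arrays. Of these, 21 were named for a single member gene, and 1 was named for *ID2* together with its pseudogene *ID2B*. Expression was measured in HEK293T, a human embryonic kidney cell line, after transient transfection with the coding region of *USF1* in the expression vector pcDNA4/HisMax (USF1, 3 arrays) or with the empty vector (Empty vector, 3 arrays). Total RNA of both groups was taken 48 hours after transfection and hybridized to Affymetrix arrays. All values are log2 signals from RMA, so a difference of 1 is a 2-fold change in signal, and levels of different probesets cannot be set against each other. The sources used here do not say whether each array stands for its own transfection, so the p-values cover the spread of the arrays alone, and this spread may be technical.

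Proteins of the bHLH family bind DNA as dimers at short sequences called E-boxes. E proteins, made from *TCF3* (the gene of E12 and E47, also called E2A), *TCF4* (E2-2) and *TCF12* (HEB), are present in most tissues and pair with each other or with tissue-restricted bHLH factors to activate transcription. ID proteins lack the basic region that touches DNA, so an E protein bound to ID1, ID2 or ID3 cannot bind an E-box. HES1 and HEY1 are repressors switched on by Notch signalling, and *ID1* and *ID3* are well-known targets of bone morphogenetic protein (BMP) signalling. USF1 is a bHLH factor of another class, with a leucine zipper, and binds the palindromic E-box CACGTG. *TCF3* and *TCF4* are meant here by their gene identifiers, and not the Wnt pathway genes *TCF7L1* and *TCF7L2*, which share these names in older literature.

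*TCF3* was lower in USF1 cells at 2 of its 6 probesets, and no probeset of the other member genes passed the test. A probeset was called changed where limma, a linear model fitted over all probesets, gave it an adjusted p-value under 0.05. Of the 22 member probesets 2 were called, both of *TCF3* and both lower, which is 9.09% of them, where 11.9% of all probesets were called and 7.60% were called lower. The members' share is close to that of the whole array. The 5 member probesets with an unadjusted limma p-value under 0.05 were 208986_at of *TCF12* and 209153_s_at, 210776_x_at, 213811_x_at and 213730_x_at of *TCF3*. Those of *TCF3* read the same gene in the same arrays, and no share of all probesets is given for this level. By a t-test with unequal variances, 4 of the 22 member probesets and 3419 of all 16569 had an unadjusted p-value under 0.05. The values of the groups did not overlap at 5 of the 22 probesets (22.7%), against 36.1% of all probesets. Differences lay below 0 at 19 of the 22 (86.4%), against 60.8% of all probesets, and their median was -0.17 on the log2 scale, against -0.065 for all probesets. Of the 19, *TCF3* gave 6 and *TCF4* 5, and probesets of 1 gene are not independent. The medians of the USF1 arrays (5.883 to 5.956) all lay below those of the Empty vector arrays (5.963 to 6.004). With these medians set to 0, 201565_s_at of *ID2*, 212385_at of *TCF4* and 203394_s_at of *HES1* lay above 0. All 22 differences were under 2-fold, and for 21 the 95% interval of the difference also lay within 2-fold either way. Over the whole array 36.2% of the calls were higher values, a share that became 56.1% once the median of each array was set to 0 and 50.4% when the values were quantile normalized again.

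**Figure D1:**
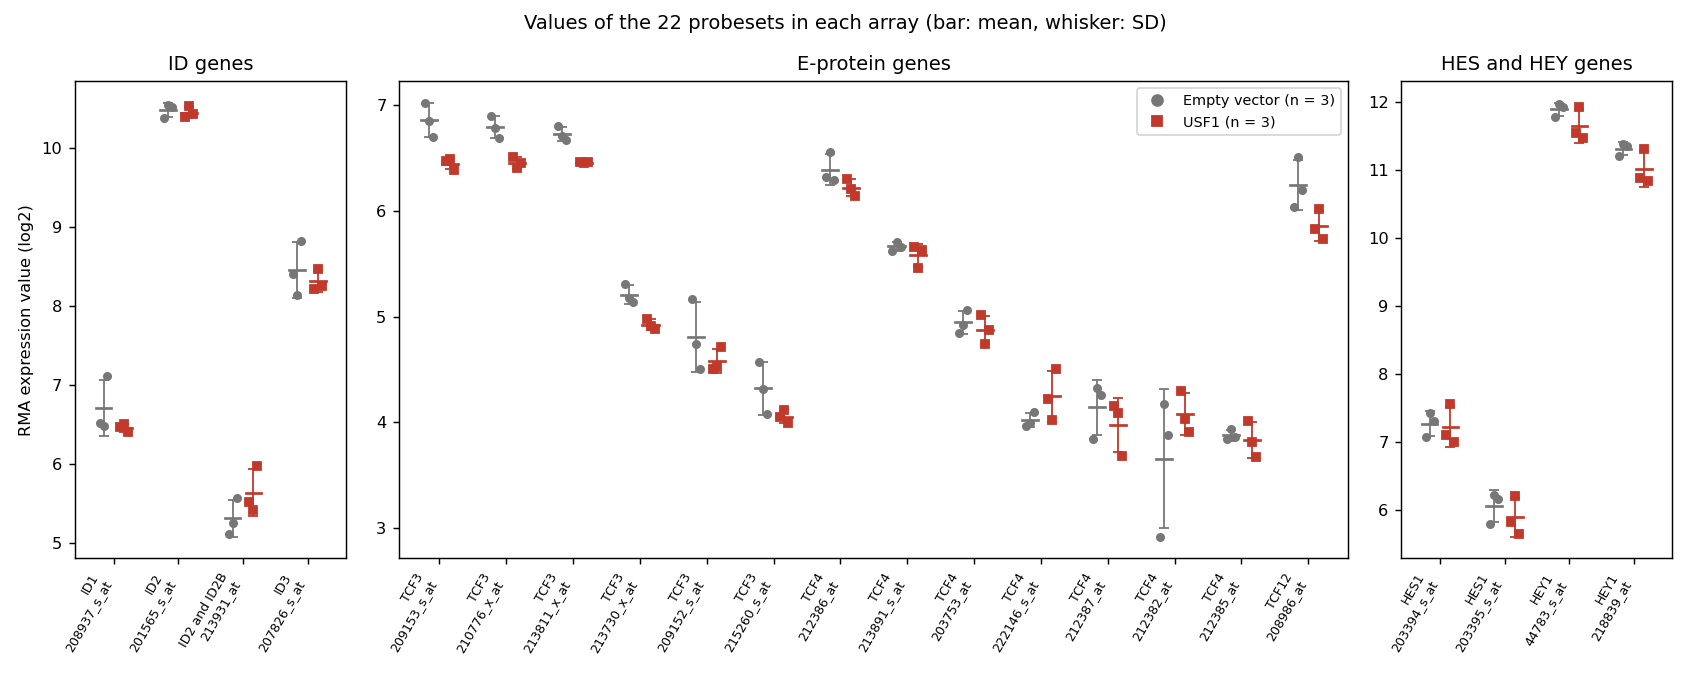
Log2 RMA signal (vertical axis) of the 22 probesets of *ID1*, *ID2*, *ID3*, *TCF3*, *TCF4*, *TCF12*, *HES1* and *HEY1*, in which a grey point is an Empty vector array and a red point a USF1 array, and the bar and whisker give the mean and SD of 3 arrays. The groups lie apart at 5 probesets, 4 of *TCF3* and that of *TCF12*, and overlap at the other probesets.

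Of the arrays, Empty vector replicate 1 stood apart most, with an SD of 0.336 over all probesets in its comparison with either other Empty vector array, against 0.182 between those 2. The control probesets of actin, which compare the 5′ with the 3′ end of the transcript and fall where RNA is degraded or copied short, gave 5′ minus 3′ values of -1.34 and -1.04 in Empty vector replicates 1 and 2 and from -0.681 to -0.493 in the other arrays. The part of RNA quality in any difference given here was not tested. *USF1* itself had 1 probeset, with values of 4.76, 4.94 and 4.68 in USF1 arrays and 4.37, 5.08 and 5.14 in Empty vector arrays. The groups overlapped (difference -0.071, SE 0.19, limma adjusted p-value = 0.836), and as the plasmid holds only the coding region, this probeset may not see its transcript. For the protein, the paper reports USF1 over-expression in transfected HEK293T cells from a western blot. Of 10 genes listed as typical of HEK293T cells 5 were measured, with the neurofilaments *NEFM* and *NEFL* and vimentin (*VIM*) at mean log2 values between 7.99 and 10.4 in both groups, *CDH2* at 5.92 and 5.82 and *NES* at 4.40 and 4.27 in USF1 and Empty vector. None of the 5 was called at its brightest probeset (0 at an unadjusted p-value under 0.05), while 2 of the 3 probesets of *NEFL* were called. None of 29 markers of fibroblasts, blood cells, endothelium, hepatocytes and adipocytes had a probeset of its own in the table, from which the authors had removed probesets with mostly absent calls.

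*TCF3* is the E-protein gene that had calls. Its brightest probeset, 209153_s_at, read 6.47, 6.49 and 6.39 in USF1 arrays and 7.03, 6.86 and 6.71 in Empty vector arrays. All USF1 arrays lay below all Empty vector arrays, and the USF1 arrays lay closer together (SD 0.055) than the Empty vector arrays (SD 0.16). The difference was -0.41 (SE 0.10, limma adjusted p-value = 0.0363), or 0.751 times the Empty vector signal. Probeset 210776_x_at read 6.51, 6.40 and 6.45 in USF1 arrays and 6.90, 6.79 and 6.69 in Empty vector arrays, again without overlap, with a difference of -0.34 (SE 0.090, limma adjusted p-value = 0.0451). As RNA of whole cultures was measured, less *TCF3* RNA per cell and fewer cells that make it cannot be told apart.

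The other 4 *TCF3* probesets did not pass the test, and their differences were all below 0. Probeset 213811_x_at stood at 6.46 in each USF1 array and at 6.80, 6.71 and 6.67 in Empty vector arrays (difference -0.27, SE 0.082, limma adjusted p-value = 0.0640). Probeset 213730_x_at stood at 4.98, 4.91 and 4.88 in USF1 arrays and at 5.31, 5.17 and 5.14 in Empty vector arrays (difference -0.28, SE 0.088, limma adjusted p-value = 0.0684). The groups did not overlap at either of them. At the 2 dimmest, 209152_s_at and 215260_s_at, the groups overlapped, with differences of -0.23 (SE 0.16) and -0.27 (SE 0.13). The 6 probesets measure RNA of the same gene in the same arrays and are not independent of each other. The ending _x_at marks a probeset some of whose probes match other transcripts too, and the authors had masked nonspecific probes. With the values of the 6 probesets averaged, *TCF3* differed by -0.30 (SE 0.099, limma adjusted p-value = 0.0555).

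The calls of *TCF3* lay near the threshold. The difference at 209153_s_at ranged from -0.49 to -0.33 when each array was left out in turn, and it was called in 1 of these 6 fits, the one without Empty vector replicate 3 (limma adjusted p-value = 0.0401), while the adjusted p-values of the other 5 lay between 0.0539 and 0.146. That at 210776_x_at ranged from -0.39 to -0.29 and was called in 0 of them (adjusted p-values between 0.0564 and 0.151). With the array medians set to 0, the differences were -0.34 and -0.27 and neither was called (limma adjusted p-value = 0.0508 and 0.0720).

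Within the Empty vector group the level of *TCF3* moved with the actin control. Averaged over its 6 probesets, each set to a mean of 0 over the 6 arrays, *TCF3* stood at 0.33 in Empty vector replicate 1, 0.13 in replicate 2 and -0.0051 in replicate 3, where the actin 5′ minus 3′ values were -1.34, -1.04 and -0.516. In the 3 USF1 arrays *TCF3* stood between -0.16 and -0.14, with actin values from -0.681 to -0.493. Empty vector replicate 3, the one with an actin value inside the range of the USF1 arrays, had *TCF3* nearest to theirs, and above it at each of the 4 brightest probesets. The *GAPDH* control did not give the same picture past Empty vector replicate 1, as its values were -0.582, -0.316 and -0.256 in Empty vector replicates 1, 2 and 3 and from -0.345 to -0.322 in USF1 arrays, so that replicate 2 lay nearest to the USF1 range. The part of either control in the difference was not tested. Without Empty vector replicates 1 and 2, an alternative chosen after seeing the data in which the lone Empty vector array is assumed to vary like the others, the differences at 209153_s_at and 210776_x_at were -0.26 (SE 0.12) and -0.24 (SE 0.12), and neither was called (limma adjusted p-value = 0.328 and 0.365).

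**Figure D2:**
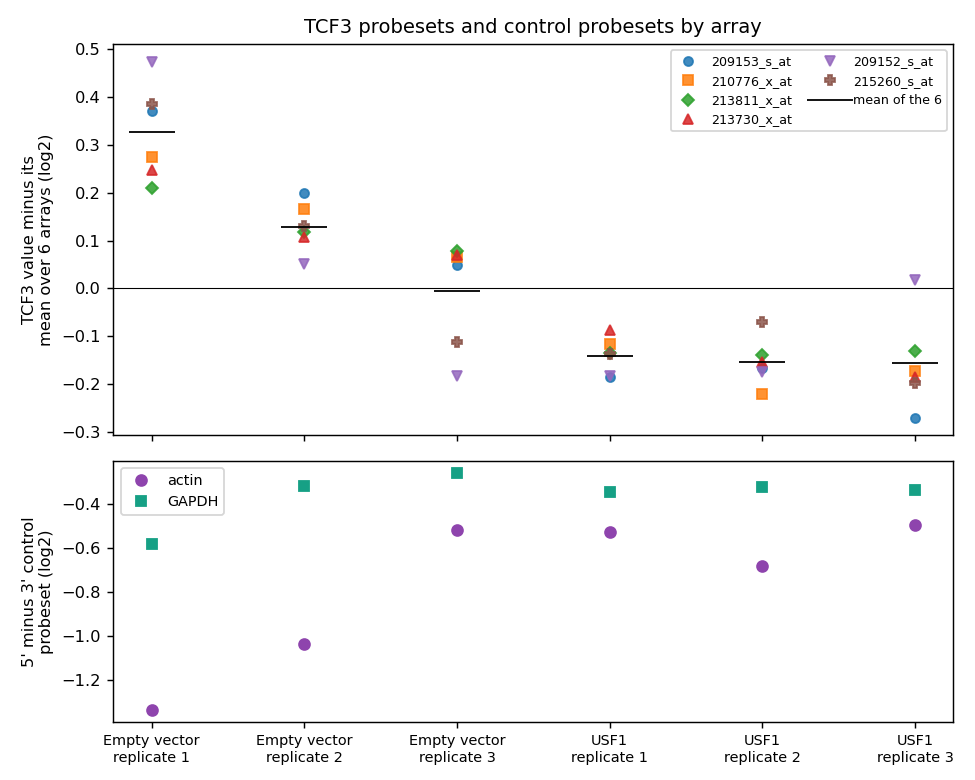
Upper panel, log2 values of the 6 *TCF3* probesets in each array, each probeset minus its mean over the 6 arrays, with the mean of the 6 as a bar; lower panel, the log2 difference between the 5′ and 3′ control probesets of actin and *GAPDH* in the same arrays. The mean for *TCF3* is 0.33 in Empty vector replicate 1 and lies between -0.16 and -0.14 in the USF1 arrays, and the actin value is lowest, at -1.34, in Empty vector replicate 1.

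*TCF12*, the partner E-protein gene HEB, had the lowest difference after that of *TCF3* at 209153_s_at. Its probeset 208986_at read 5.83, 6.02 and 5.74 in USF1 arrays and 6.04, 6.51 and 6.20 in Empty vector arrays. The groups lay apart by the narrow gap between 6.02 and 6.04. The difference of -0.39 (SE 0.13, limma adjusted p-value = 0.0894) did not pass, with a 95% interval from -0.69 to -0.084. It passed without Empty vector replicate 1 (-0.49, limma adjusted p-value = 0.0321) and when limma weighted the arrays by their quality (-0.50, adjusted p-value = 0.0168). It did not pass without Empty vector replicate 2 (-0.26, limma adjusted p-value = 0.226) or without USF1 replicate 3 (-0.33, limma adjusted p-value = 0.279). With the array medians set to 0 it was -0.32 and was not called (limma adjusted p-value = 0.149).

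*TCF4*, the E-protein gene E2-2, had 7 probesets, and none was called. Their differences ran from -0.17 to 0.42, 5 of them below 0, and the groups overlapped at each. The brightest, 212386_at, read 6.31, 6.21 and 6.15 in USF1 arrays and 6.33, 6.56 and 6.29 in Empty vector arrays, a difference of -0.17 (SE 0.10, 95% interval -0.40 to 0.057). The highest difference, at 212382_at, came with the widest spread of any member, since Empty vector replicate 1 stood at 2.91 and the other 2 at 4.17 and 3.88, and it fell from 0.42 to 0.052 without that array. *TCF4* thus gave no common direction over its probesets, whereas each *TCF3* probeset lay below 0. The *TCF4* probesets above 0, 222146_s_at and 212382_at, were dim, with mean log2 signals of 4.13 and 3.87. So were 212387_at and 212385_at (4.06 and 3.85), which lay below 0, as did the brighter 212386_at, 213891_s_at and 203753_at. Whether *TCF3* and *TCF4* differed in their response was not tested.

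**Figure D3:**
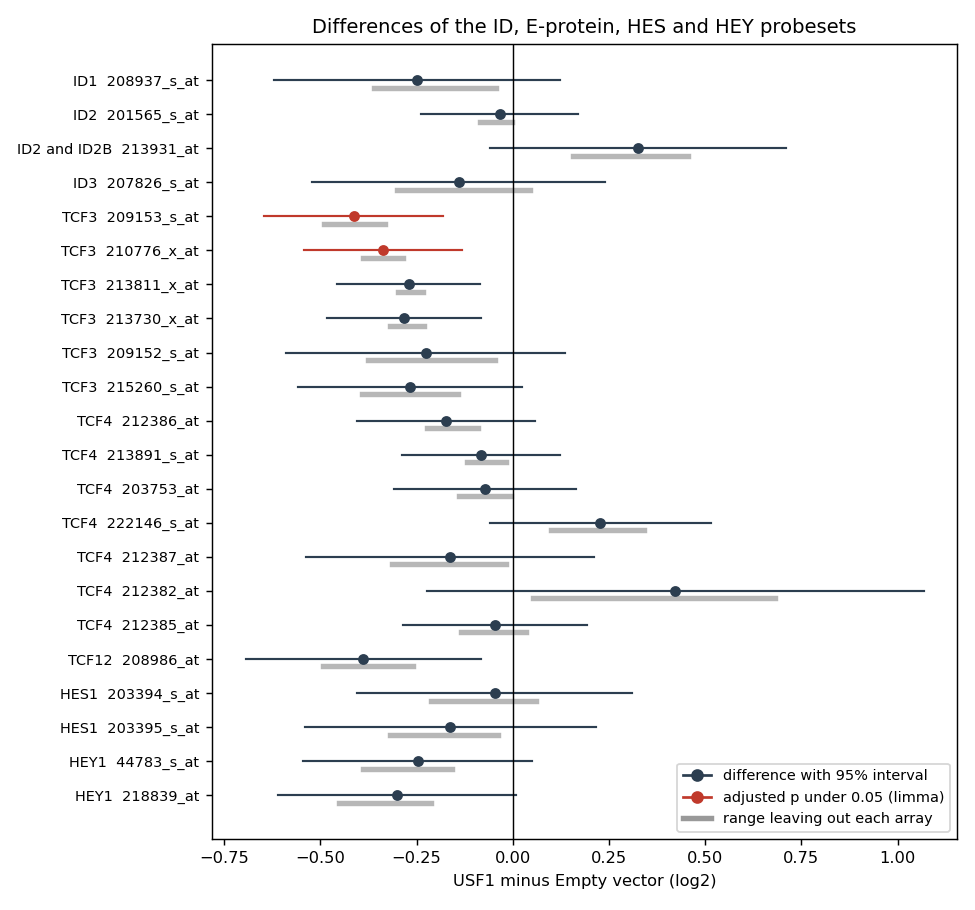
Log2 difference between USF1 and Empty vector (horizontal axis) for each of the 22 probesets (vertical axis), with its 95% interval from limma (thin line) and the range of the difference when each array is left out in turn (grey bar below it), in red where the adjusted p-value is under 0.05. Both red points are *TCF3* probesets, at -0.41 and -0.34, and only the interval of *TCF4* probeset 212382_at reaches beyond 1.

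The promoters of *TCF3*, *TCF12* and *HES1* are shown because *TCF3* holds the calls, *TCF12* came next and its first window has the E-box that USF1 binds, and *HES1* has the known elements of Notch and of its own repression. RefSeq windows of 300 bases, 250 before and 50 after a transcription start in the build GRCh38.p14, were given for 7 of the 8 genes, 20 windows in all (10 for *TCF4*, 5 for *TCF12* and 1 for each other gene), and not for *HEY1*. Each motif was searched on both strands. In the *TCF3* window (chr19:1652566-1652865, minus strand) capitals mark 1 match of the N-box CACGAG, 153 bases before the start, and 1 of the class C box CACGCG, 85 bases before it, types of site that HES and HEY repressors bind. The class C boxes of the *TCF3* and *HES1* windows lie on the opposite strand and read CGCGTG as printed. In the first *TCF12* window (chr15:56917840-56918139, plus strand) capitals mark CACGTG, 183 bases before the start. That window also holds 1 CACGCG, 35 bases after the start, and 1 TGGGAA on the opposite strand, 200 bases before it, both left in lower case. In the *HES1* window (chr3:194135898-194136197, plus strand) capitals mark 2 matches each of CACGAG and CACGCG and 2 of TGGGAA, the core of the site of RBPJ, which carries the Notch signal to DNA.
*TCF3*: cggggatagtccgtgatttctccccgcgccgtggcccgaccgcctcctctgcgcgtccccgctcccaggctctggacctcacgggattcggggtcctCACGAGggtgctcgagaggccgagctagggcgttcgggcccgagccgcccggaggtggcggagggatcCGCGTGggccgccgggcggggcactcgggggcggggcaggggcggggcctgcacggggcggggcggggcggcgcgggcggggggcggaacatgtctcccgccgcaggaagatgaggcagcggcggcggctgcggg
*TCF12*: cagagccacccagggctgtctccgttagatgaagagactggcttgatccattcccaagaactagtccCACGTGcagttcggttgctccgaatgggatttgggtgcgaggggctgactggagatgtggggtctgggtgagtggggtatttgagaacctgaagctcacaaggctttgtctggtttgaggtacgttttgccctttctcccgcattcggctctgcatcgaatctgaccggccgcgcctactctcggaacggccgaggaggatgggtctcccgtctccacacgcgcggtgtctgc
*HES1*: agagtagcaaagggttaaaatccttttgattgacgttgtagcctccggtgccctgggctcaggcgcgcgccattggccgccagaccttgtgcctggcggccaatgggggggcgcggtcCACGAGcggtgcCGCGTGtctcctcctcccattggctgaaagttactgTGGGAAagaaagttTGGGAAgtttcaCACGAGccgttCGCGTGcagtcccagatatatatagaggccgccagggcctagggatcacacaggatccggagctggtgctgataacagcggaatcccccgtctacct

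The *TCF3* window held no CACGTG and no E-box of the general form CANNTG, which includes CACGTG. Over all 35116 RefSeq windows, CACGTG was found in 7.26%, CANNTG in 68.7%, CACGCG in 11.4%, CACGAG in 6.78% and TGGGAA in 24.0%. Among the other member windows, CACGTG was found in 1 of the 10 of *TCF4*. The *ID1* and *ID3* windows held none of these motifs and no GGCGCC, a core of BMP-responsive elements found in 19.2% of all windows, and the *ID2* window held 1 CANNTG. A match is only a run of letters, and its absence says nothing of binding outside these windows.

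**Figure D4:**
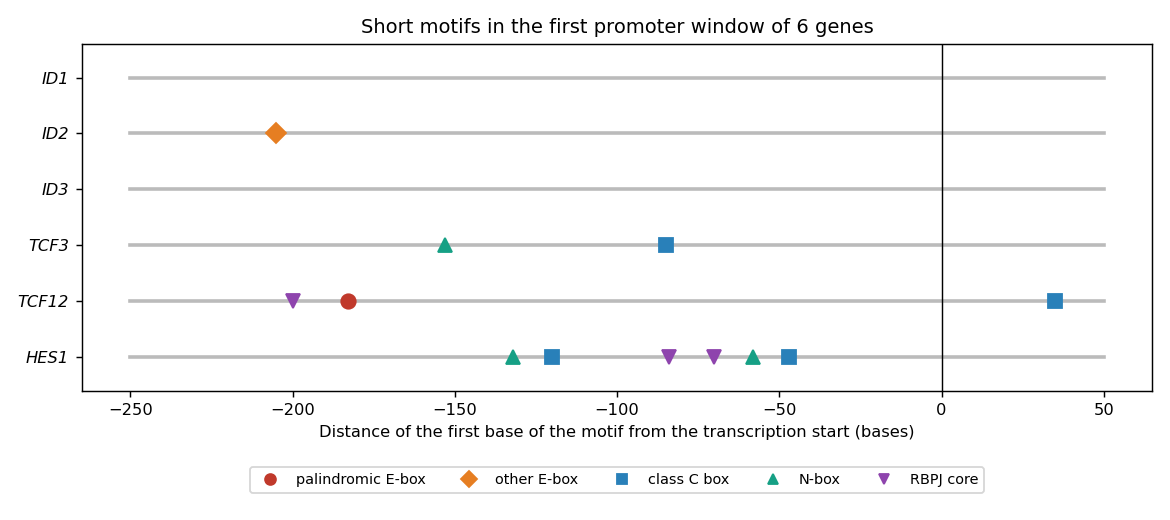
Distance from the transcription start in bases (horizontal axis) of the first base of each motif match in the RefSeq promoter window of *ID1*, *ID2*, *ID3*, *TCF3* and *HES1* and in the first window of *TCF12* (rows), with 1 symbol per match. Only *TCF12* has the palindromic E-box among these 6 windows, at 183 bases before the start, and *HES1* has a pair of RBPJ cores between its N-boxes. Not shown are the 10 windows of *TCF4*, 1 of which holds this E-box, and the other windows of *TCF12*, which do not.

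The ID genes, inhibitors of E proteins, showed no change that passed the test. *ID1* read 6.46, 6.50 and 6.40 in USF1 arrays and 6.52, 6.48 and 7.12 in Empty vector arrays. Empty vector replicate 3 stood above the other 5 arrays, which lay within 6.40 to 6.52. The difference of -0.25 (SE 0.16, limma adjusted p-value = 0.332) had a 95% interval from -0.62 to 0.12 and was -0.042 without that array. With Empty vector replicate 3 as the only Empty vector array, it was -0.66 and was called (limma adjusted p-value = 0.0465), so that the value for *ID1* turned on this array.

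*ID3* followed the same array. It read 8.22, 8.47 and 8.26 in USF1 arrays and 8.41, 8.14 and 8.83 in Empty vector arrays, with Empty vector replicate 3 highest again. The difference was -0.14 (SE 0.17, 95% interval -0.52 to 0.24) and had the opposite sign, 0.046, without Empty vector replicate 3.

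*ID2* had the smallest difference of all member probesets. Its probeset 201565_s_at read 10.40, 10.53 and 10.43 in USF1 arrays and 10.39, 10.55 and 10.53 in Empty vector arrays. The groups overlapped throughout, with a difference of -0.034 (SE 0.089, 95% interval -0.24 to 0.17, limma adjusted p-value = 0.826). After centring on the array medians it was 0.034. The probeset shared with the pseudogene *ID2B*, 213931_at, read 5.52, 5.41 and 5.97 in USF1 arrays and 5.11, 5.24 and 5.57 in Empty vector arrays. Its difference of 0.32 (SE 0.17, 95% interval -0.060 to 0.71) did not pass either, and which of the 2 genes it reads cannot be told.

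*HES1* and *HEY1*, repressors downstream of Notch, did not pass the test. *HES1* probeset 203394_s_at read 7.10, 7.55 and 7.0 in USF1 arrays and 7.07, 7.43 and 7.30 in Empty vector arrays, with full overlap and a difference of -0.047 (SE 0.16, 95% interval -0.40 to 0.31). The sign of this difference turned with centring (0.021), with a further quantile normalization (0.016) and without USF1 replicate 1 (0.010), USF1 replicate 3 (0.061) or Empty vector replicate 2 (0.034). The other *HES1* probeset, 203395_s_at, differed by -0.16 (SE 0.17).

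*HEY1* was read by a pair of bright probesets that gave like profiles. Probeset 44783_s_at read 11.54, 11.93 and 11.47 in USF1 arrays and 11.78, 11.97 and 11.92 in Empty vector arrays, and 218839_at read 10.88, 11.31 and 10.84 in USF1 arrays and 11.20, 11.38 and 11.35 in Empty vector arrays. At both, USF1 replicates 1 and 3 lay below all Empty vector arrays and USF1 replicate 2 among them. The differences were -0.25 (SE 0.13, limma adjusted p-value = 0.234) and -0.30 (SE 0.14, limma adjusted p-value = 0.169). Without USF1 replicate 2 they were -0.39 and -0.45, and both were called (limma adjusted p-value = 0.0446 and 0.0312). Both were also called with array weights, at -0.35 and -0.41 (limma adjusted p-value = 0.0483 and 0.0303). That setting called 3688 of all probesets, against 1974 in the main fit. Without USF1 replicate 3 the differences were -0.16 and -0.21, and neither was called (limma adjusted p-value = 0.563 and 0.455). With the array medians set to 0 they were -0.18 and -0.23, again without a call (limma adjusted p-value = 0.388 and 0.288).

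The arrays numbered 2 were the highest of their group in both groups at 6 of the 22 probesets (27.3%), namely both probesets of *HES1*, both of *HEY1*, that of *TCF12* and 201565_s_at of *ID2*. Over all probesets this was the case for 16.2%. It was looked for after the values had been seen.

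Around the members, some genes of the same family and pathways changed and most did not pass the test. Each gene was taken at its brightest probeset, where 5.18% of 9586 genes were called higher and 8.89% lower, with a median difference of -0.079. Of 11 other genes of the ID, HES and HEY families and their BHLHE relatives, 8 were measured. Of these, 2 were called higher and 0 lower, with a median of 0.051. The 1 gene lower at an unadjusted limma p-value under 0.05 was *ID4*, at -0.23 (SE 0.093, limma adjusted p-value = 0.131). *BHLHE41* (DEC2), a repressor of the circadian clock, rose from 4.98, 4.80 and 4.65 in Empty vector arrays to 5.52, 5.85 and 5.25 in USF1 arrays, without overlap (difference 0.73, SE 0.16, limma adjusted p-value = 0.0236). *HES6*, a HES relative that counters HES1, rose by 0.40 (SE 0.10, limma adjusted p-value = 0.0371). Both kept the call after centring. Of 37 tissue-restricted partners of E proteins only 6 were measured, and 0 were called (1 at an unadjusted p-value under 0.05). The lowest of them was *HAND1*, a partner in heart and trophoblast, at -0.49 (SE 0.14, limma adjusted p-value = 0.0564).

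Of 46 genes of BMP and TGF-beta signalling, the input of the ID genes, 30 were measured, 3 (10.0%) were higher and 2 (6.67%) lower, with a median of -0.028. *TGFB2*, a TGF-beta ligand, read 4.92, 5.18 and 4.96 in USF1 arrays and 3.89, 4.19 and 3.93 in Empty vector arrays, a rise of 1.02 (SE 0.11, limma adjusted p-value = 0.00289). The latent TGF-beta binding proteins, which hold the ligand in the matrix, rose as well, *LTBP3* by 0.59 (SE 0.095, called at 1 of its 2 probesets) and *LTBP1* by 0.57 (SE 0.13, called at both). Among the inhibitors, *BAMBI*, a decoy receptor, fell by 0.63 (SE 0.15, limma adjusted p-value = 0.0319), and *SMURF1*, a ubiquitin ligase for BMP SMADs, fell by 0.46 (SE 0.11, limma adjusted p-value = 0.030). The BMP ligand *BMP4* (-0.24, SE 0.10), the receptor *ACVR1* (-0.47, SE 0.14) and the mediators *SMAD1* (0.31, SE 0.13) and *SMAD4* (-0.22, SE 0.083) did not pass. The ligand *BMP7* did not pass at its brightest probeset (0.12, SE 0.12), while 1 of its 2 probesets was called.

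Of 45 genes of Notch signalling, the input of *HES1* and *HEY1*, 32 were measured, 3 (9.38%) were higher and 0 lower (1 lower at an unadjusted p-value under 0.05), with a median of -0.0046. The ligand *JAG2* read 6.21, 5.98 and 6.17 in USF1 arrays and 5.71, 5.38 and 5.43 in Empty vector arrays, a rise of 0.61 (SE 0.12, limma adjusted p-value = 0.0167, called at 1 of its 2 probesets). The ligand *DLL1* rose by 0.46 (SE 0.095, limma adjusted p-value = 0.0211), from 6.41, 6.38 and 6.31 to 6.95, 6.69 and 6.85. *APH1A*, a subunit of the gamma-secretase that cuts the Notch receptor, rose by 0.75 (SE 0.15, limma adjusted p-value = 0.0211). Its Empty vector arrays read 7.12, 7.67 and 7.70, with replicate 1 lowest, and its USF1 arrays lay between 8.20 and 8.34. The receptor *NOTCH2* (-0.18, SE 0.090) and *RBPJ* (-0.22, SE 0.13) did not pass. These 3 rises were also called after centring.

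Of 19 corepressors and stability factors of these proteins 17 were measured, 0 were higher and 1 (5.88%) lower, with a median of -0.16. This was *RUNX1T1*, the E-protein corepressor ETO, at 1 of its 2 probesets (-0.40, SE 0.10, limma adjusted p-value = 0.0385; -0.33 and not called after centring). *USP1*, the enzyme that removes ubiquitin from ID proteins, stood at -0.23 (SE 0.098), and the HES corepressor *TLE1* at -0.25 (SE 0.089), without passing. Of 14 genes that ID or E proteins are known to act on 11 were measured, 2 (18.2%) were higher and 1 (9.09%) lower, with a median of 0.035. E-cadherin (*CDH1*), which E proteins repress in epithelial cells, rose by 1.77 (SE 0.11, limma adjusted p-value = 0.000256), from between 4.73 and 5.10 to between 6.58 and 6.70. The chemokine receptor *CXCR4* rose by 0.38 (SE 0.10, limma adjusted p-value = 0.0491) at 1 of its 3 probesets, and *GATA3*, a transcription factor of T cells and kidney, fell by 0.46 (SE 0.11, limma adjusted p-value = 0.0344). The cell-cycle inhibitor *CDKN1A* stood at 0.17 (SE 0.12).

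Of the 14 called genes of these lists, *TGFB2* and *CDH1* were called in each of the 6 fits that leave out an array. *LTBP3* lost its call only without USF1 replicate 1 (difference in the 6 fits from 0.54 to 0.67, highest limma adjusted p-value = 0.0502). The other 11 were lost in 2 to 5 of the fits, with highest adjusted p-values between 0.0792 for *JAG2* and 0.168 for *CXCR4*, and each kept its direction. USF1 replicate 1 was among the arrays whose removal ended the call for *LTBP3* and for each of these 11, and without it 466 of all probesets were called. Leaving out USF1 replicate 3 ended the call for each of the 11 except *BHLHE41*, and 369 of all probesets were then called. Without Empty vector replicate 2 this number was 574.

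**Figure D5:**
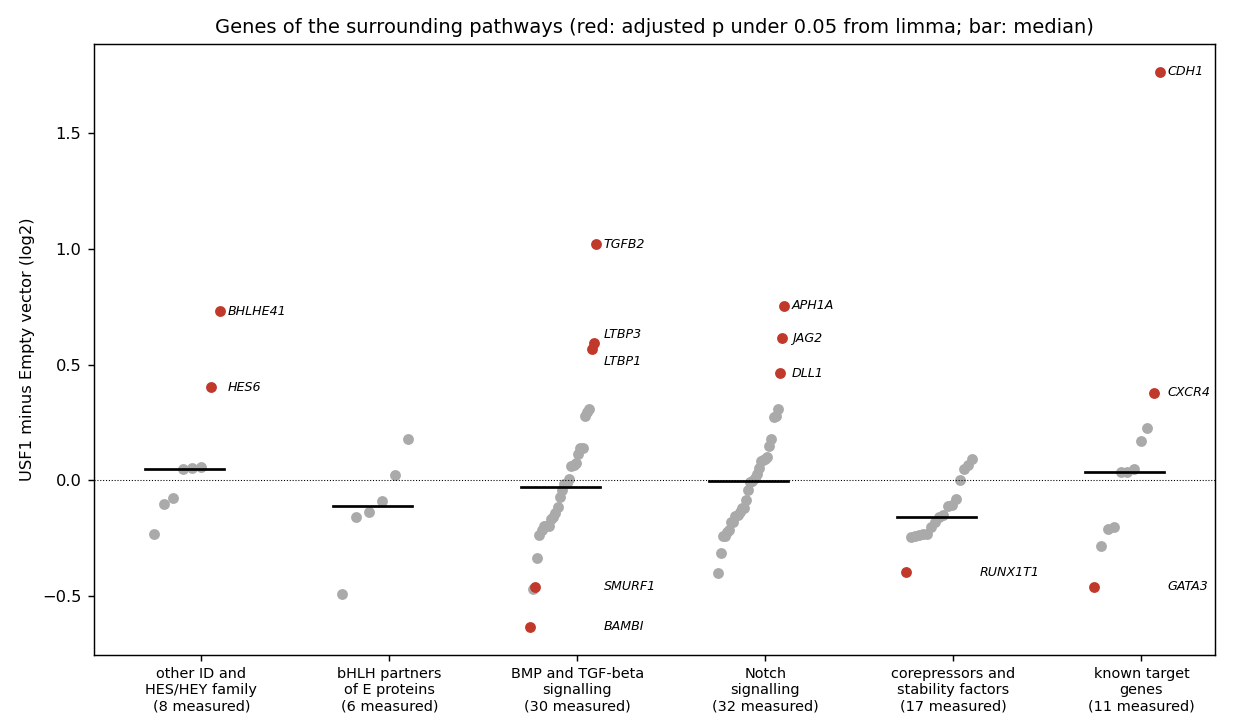
Log2 difference between USF1 and Empty vector (vertical axis) of each measured gene of 6 lists (horizontal axis), with the called genes in red and named and the median of a list as a bar. *CDH1* at 1.77 and *TGFB2* at 1.02 stand highest, and the medians lie between -0.16 and 0.051.

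The genes whose profiles over the 6 arrays were most like that of *TCF3* at 209153_s_at, by the root mean square distance of log2 values each set to a mean of 0, were the kinase *STK38* (0.023), *GPATCH4* (0.032) and *RPF2*, a factor of ribosome assembly (0.033). The other *TCF3* probesets lay at distances from 0.068 to 0.17. As this ranking seeks genes with the same difference, their differences of -0.42, -0.46 and -0.41 are no further result.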

How the data were processed

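Arrays of HEK293T RNA, taken 48 hours after transfection, were assigned by title to USF1 (3) and Empty vector (3). The deposited table holds log2 signals from RMA. The authors made them with justRMA under R 2.8.0, so background correction and quantile normalization were already done. They masked probes that were nonspecific or missed their target, removed probesets left with few probes or called absent in most arrays, and ran ComBat. The sources used here do not say which arrays made up a batch, so the fit holds no term for it. The number of arrays limits the precision.

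USF1 was compared with Empty vector by lmFit and eBayes of limma 3.58.1 in R 4.3.3 over all 16569 probesets, without covariates (prior of 4.53 degrees of freedom), with Benjamini-Hochberg adjustment and a threshold of 0.05. Of the probesets, 15099 had 1 gene symbol, 570 several and 900 none, and 15098 of the first were matched by gene identifier to GRCh38.p14 symbols.

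Members and gene lists were chosen with earlier results of these data known, the lists from general knowledge. The text names all member probesets, every called list gene (5 or fewer per list), the 3 profiles most like a called member and, chosen after their values were seen, further list genes by their role. Alternatives were the methods' t-test, other priors, array weights, other normalizations, a filter on low values, a replicate block, gene means and leaving out arrays.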

Additional observations from a re-analysis of the deposited data

How the results depend on the processing

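Member probesets called numbered 2 as reported, 0 with the methods' t-test after adjustment (with equal or unequal variances) and 4 with it unadjusted, 6 with array weights, 1 after a further quantile normalization, 0 after centring each array on its median, 4 with a replicate block and from 0 to 2 without single arrays. The 2 calls without USF1 replicate 2 were those of *HEY1*, and the 1 call without Empty vector replicate 1 was that of *TCF12*. Without both Empty vector arrays 1 and 2, added after the data were seen, 1 was called, *ID1*. All probesets called numbered 1974, against 1 and 160 with the methods' t-test after adjustment (unequal and equal variances), 3419 unadjusted and 3688 with array weights. They numbered 1935 after a further quantile normalization and 1856 after centring. Without single arrays they numbered from 369 to 2222, and without both Empty vector arrays 1 and 2 they numbered 277. Genes called over the 6 lists numbered 14, against 0 and 1 with the methods' t-test after adjustment, 24 with array weights, from 2 to 14 without single arrays and 3 without both Empty vector arrays 1 and 2. The cause of these shifts was not tested.

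No source used here ties same-numbered arrays of the groups to a shared preparation, and they were not treated as pairs. The correlation of their deviations from the group means was 0.096, 0.25 and 0.13 for numbers 1, 2 and 3. All 6 arrays correlated best with their own number. The deviations within a group sum to 0 at each probeset, so these 6 matches are not independent and are only a weak hint from the data. With the replicate block 2875 probesets were called, and *TCF12* and a further *TCF3* probeset, 213730_x_at, joined the calls. Over 375 comparisons of a member probeset with an alternative, the sign differed in 11, at 6 probesets, none of them called under either setting.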
